A study of Homo sapiens with 4 samples.

Results

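Peaks of p53 chromatin immunoprecipitation with sequencing (ChIP-seq) that lay near a chromosome end and belonged to 1 genotype's list alone are described here, 123 from the p53-R273H list and 200 from the wildtype list. A peak was taken when it overlapped no peak of the other list by 1 bp or more and its midpoint lay within 3 Mb of either end of its hg38 chromosome. These 323 peaks were drawn from 4067 in all, with 2008 listed for R273H and 2059 for wildtype. The peaks were therefore chosen by where the authors' peak calls fell in each list, and their number and position are a description with no test.

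The cells were HCT116, an established colon cancer line, grown as spheroids in serum-free medium with EGF and bFGF, each at 20 ng/ml, at passages 13 to 18. Both genotypes, p53-R273H and a wildtype control, were fixed in 1% formaldehyde for 5 minutes, sonicated for 10 minutes and precipitated with the p53 antibody DO-1. How the mutation was brought in, whether either line is a clone, and whether wildtype p53 remains beside R273H are not stated in the labels. Of the 4 samples 2 were ChIP and 2 were input libraries, so there was 1 ChIP library per genotype and no difference between the lists has a replicate check.

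The tumour suppressor p53 binds DNA through a response element of paired half-sites and activates genes of cell cycle arrest and cell death, and R273H replaces an arginine that touches DNA. Human chromosomes end in telomeres, long runs of TTAGGG, and just inside them lie subtelomeres, where blocks of sequence and small gene families such as WASH, DDX11L and FAM157 are repeated from one chromosome to another. Near the long-arm ends of chromosomes 4 and 10 lie arrays of D4Z4 repeats, each unit with a copy of the homeobox gene DUX4, and many tandem repeats with a high GC content also lie towards the ends.

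The only base sequences at hand were RefSeq promoter windows (GRCh38.p14, 250 bases before to 50 after a transcription start), and members overlapped 11 of those searched. The windows below belong to the highest-scoring of the few members over a window in each list, and are shown so that repeated and unrepeated sequence under the peaks can be compared. Bases inside the p53 peak are in capitals and the strand is that of the gene. SPATC1L, a gene expressed in testis, lay under an R273H peak of score 161 and is shown for the 250 bases before its start (chr21:46184460-46184709, minus strand). LINC01925 lay under an R273H peak of score 58.92 (chr18:515245-515544, minus strand). TCERG1L-AS1, an antisense RNA, lay under the highest-scoring wildtype member, of score 847.34 (chr10:131094968-131095267, plus strand). LINC02564 lay under a wildtype peak of score 87.74 (chr18:11310-11609, plus strand). LINC02684 lay under a wildtype peak of score 77.76 (chr11:135076148-135076447, minus strand).
SPATC1L: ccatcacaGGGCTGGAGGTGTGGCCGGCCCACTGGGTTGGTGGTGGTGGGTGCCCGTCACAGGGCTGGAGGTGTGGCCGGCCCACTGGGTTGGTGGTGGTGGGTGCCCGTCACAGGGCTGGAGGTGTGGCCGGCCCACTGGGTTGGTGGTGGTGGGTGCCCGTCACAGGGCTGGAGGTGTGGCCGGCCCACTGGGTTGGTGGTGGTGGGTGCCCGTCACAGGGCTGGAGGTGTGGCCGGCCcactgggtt
LINC01925: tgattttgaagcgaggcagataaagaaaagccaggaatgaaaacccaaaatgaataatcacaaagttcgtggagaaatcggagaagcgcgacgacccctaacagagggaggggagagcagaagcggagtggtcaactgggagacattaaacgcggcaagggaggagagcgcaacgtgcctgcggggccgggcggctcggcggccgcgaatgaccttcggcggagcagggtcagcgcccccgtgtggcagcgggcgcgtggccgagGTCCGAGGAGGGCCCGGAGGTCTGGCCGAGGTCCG
TCERG1L-AS1: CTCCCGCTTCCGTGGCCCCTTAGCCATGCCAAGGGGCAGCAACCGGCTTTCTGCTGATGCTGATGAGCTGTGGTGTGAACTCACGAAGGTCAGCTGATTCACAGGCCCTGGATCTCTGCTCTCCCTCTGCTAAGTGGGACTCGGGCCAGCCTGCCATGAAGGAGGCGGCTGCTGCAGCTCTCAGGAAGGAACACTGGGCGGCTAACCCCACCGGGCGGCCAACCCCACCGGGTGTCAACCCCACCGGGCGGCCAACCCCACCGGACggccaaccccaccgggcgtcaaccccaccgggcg
LINC02564: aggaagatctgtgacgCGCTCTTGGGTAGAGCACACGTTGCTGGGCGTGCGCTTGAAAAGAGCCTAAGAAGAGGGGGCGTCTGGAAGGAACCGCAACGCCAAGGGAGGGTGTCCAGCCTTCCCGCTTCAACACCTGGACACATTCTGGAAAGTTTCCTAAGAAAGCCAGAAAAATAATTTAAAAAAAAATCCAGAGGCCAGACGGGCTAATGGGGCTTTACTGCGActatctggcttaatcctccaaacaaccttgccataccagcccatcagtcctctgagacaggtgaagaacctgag
LINC02684: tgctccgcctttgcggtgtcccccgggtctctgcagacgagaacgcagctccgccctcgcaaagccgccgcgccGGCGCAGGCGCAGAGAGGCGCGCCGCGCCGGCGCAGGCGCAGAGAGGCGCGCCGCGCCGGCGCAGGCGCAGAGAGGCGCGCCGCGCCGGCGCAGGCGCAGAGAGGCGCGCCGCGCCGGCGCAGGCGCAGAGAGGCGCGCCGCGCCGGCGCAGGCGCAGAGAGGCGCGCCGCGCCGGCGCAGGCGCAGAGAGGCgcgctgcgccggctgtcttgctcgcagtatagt

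The SPATC1L and LINC02684 windows were tandem repeats, sequences copied head to tail. Each window was compared with itself shifted by 10 to 100 bases, and the SPATC1L window matched itself best at a shift of 53 bases, where 86.2% of positions were the same. The LINC02684 window matched at 29 bases with 76.4%. LOC105378598, an uncharacterised RNA under the wildtype peak at TTC34, had 2 windows that matched at 40 bases with 79.2% and 88.8%. These 4 of 11 windows passed a self-match of 60%, a limit chosen after the sequences were seen. The 2 LOC105378598 windows share bases under 1 peak, as do those of SPATC1L and LOC124905045, so the windows are not all separate cases. Of all 35116 windows 0.484% passed it, and of the 2906 windows within 3 Mb of an end 2.72% did. Over all windows the median best self-match was 34.5%.

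In the TCERG1L-AS1 window the match over the whole window was 41.6% at 50 bases, and in LINC02564 it was 34.3%. The last part of the TCERG1L-AS1 window nevertheless repeats AACCCCACCGG at short intervals, partly inside the peak. It is therefore not free of repeats, although it did not pass the limit. The p53 half-site consensus, searched on both strands, was found in 1 of the 11 windows, that of NDUFAF8, an assembly factor of mitochondrial complex I under a wildtype peak of score 65.97, and in 6.63% of all windows. In the NDUFAF8 window it stood outside the bases covered by the peak. The telomere unit TTAGGG or its complement CCCTAA was found once, in LINC01925, against 9.05% of all windows. There too it stood outside the bases covered by the peak. A pair of adjacent units, on either strand, was in none of the 11 and in 2 of all windows, and the core CATG, which many p53 half-sites contain, was in 6 of the 11 and in 54.9% of all windows. CATG stood in peak bases only in TCERG1L-AS1 and PHPT1. In SPATC1L, LOC124905045, NDUFAF8 and PKD1 it stood outside them, and the first of these windows share the same CATG on opposite strands. The remaining windows were those of LOC124905045, which faces SPATC1L under the same peak and is not shown, and of PKD1 and PHPT1. A match says only that these letters stand in the window.

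Chromosome ends held a larger share of the unshared wildtype peaks than of the unshared R273H peaks when no score or distance filter was set. The 200 wildtype peaks were 12.3% of the 1622 unshared peaks of that list (exact 95% binomial interval 10.77 to 14.03%), and the 123 R273H peaks were 7.84% of 1568 (6.56 to 9.29%), the background shares of 12.3% and 7.84% that the rule itself fixes. The end windows made up 144 of 3088 Mb, or 4.66% of the length. Peaks shared by the lists lay in the windows in 45 of 440 cases (10.2%) for R273H and 45 of 437 (10.3%) for wildtype. All intervals given cover counting error only, and the lists carry no read counts, so the depth is unknown. When peaks over 100 kb from any gene were left out of both lists, the shares were 16.1% for R273H and 16.8% for wildtype. With only peaks at or above the common median score of 63.42 they were 13.5% (10.9 to 16.5%) and 15.5% (12.9 to 18.3%), with overlapping intervals.

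Both sets of unshared peaks were denser within 0.5 Mb of the end than further in. In the outermost 0.1 Mb there were 10 R273H peaks, or 2.08 per Mb (exact 95% Poisson interval 0.999 to 3.83), and 24 wildtype peaks, or 5 per Mb (3.20 to 7.44). From 0.1 to 0.5 Mb the densities were 1.61 per Mb for R273H (1.10 to 2.29) and 2.40 for wildtype (1.75 to 3.20), and the R273H intervals of these bins overlapped. The outermost counts include peaks listed on both X and Y with equal score and width. These were at WASH6P and DDX11L16 for R273H and near LOC124905299 for wildtype. Densities with each such pair counted once were not computed. From 2 to 3 Mb they were 0.521 (0.337 to 0.769) and 1 (0.737 to 1.33) per Mb. Between 3 and 5 Mb they were 0.365 (0.254 to 0.507) and 0.458 (0.333 to 0.615) per Mb. More than 10 Mb from an end they were 0.508 (0.481 to 0.537) and 0.490 (0.463 to 0.518), with overlapping intervals in each list. Shared peaks reached 4.79 per Mb in the outermost 0.1 Mb, with 23 peaks in each list, and only 0.208 per Mb in the next bin.

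**Figure D1:**
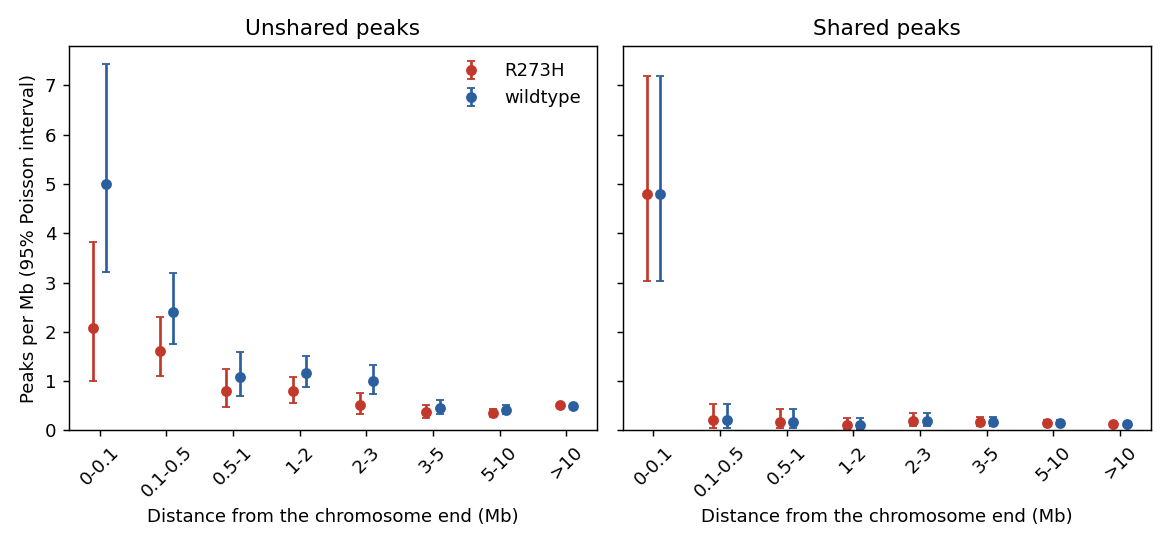
Peaks per Mb (vertical axis, with exact 95% Poisson intervals) by distance from the nearest chromosome end in Mb (horizontal axis), for unshared peaks on the left and shared peaks on the right, R273H in red and wildtype in blue. In the outermost 0.1 Mb unshared peaks reach 2.08 per Mb for R273H and 5 per Mb for wildtype, X and Y copies included. Shared peaks drop from 4.79 to 0.208 per Mb after the first bin.

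The peaks on either side of the 3 Mb limit were few. The innermost R273H members lay 2777 kb from the q end of chromosome 10 (score 93.02) and 2791 kb from the q end of chromosome 8, inside TSNARE1 (77.34). The first R273H peaks beyond the limit were a pair inside TEX29 at 3023 and 3024 kb, with scores of 111.04 and 76.8. The last wildtype members lay at 2926 kb near SLC67A1 (97.03) and at 2937 kb near CSTB (52.6), a cysteine protease inhibitor. The first wildtype peaks outside lay at 3028 kb near LOC101927759 (56.17) and at 3090 kb inside the collagen gene COL23A1 (174.15).

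Of the 48 chromosome ends, 43 had an annotated gene in the window, and each of these held at least 1 member. Members of both lists lay at 37 ends, R273H members alone at the p end of Y, and wildtype members alone at 5 ends (2p, 6p, 11q, 14q and 19q). The member at the p end of Y has the score and width of the R273H peak inside DHRSX on X. The short arms of chromosomes 13, 14, 15, 21 and 22 had no annotated gene in the window and no member. Wildtype members outnumbered R273H members at 23 ends, R273H members did so at 9, and 11 ends were equal. Across the 43 ends the counts of the lists had a Spearman correlation of 0.21, given as a description because the ends share 1 library per list.

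The p end of chromosome 1 was the one end near the top in both lists, with 11 R273H and 12 wildtype members. Next in the R273H list came 16q with 8, 10p with 7, and 4p and 5p with 6 each, against 6, 5, 2 and 5 wildtype members there. In the wildtype list 4q and 10q also had 12 members each, 8p had 10, and 11p and 17q had 9 each. The R273H list had 3, 1, 5, 1 and 1 members at these ends. The fullest ends outside 1p thus differed between the lists.

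**Figure D2:**
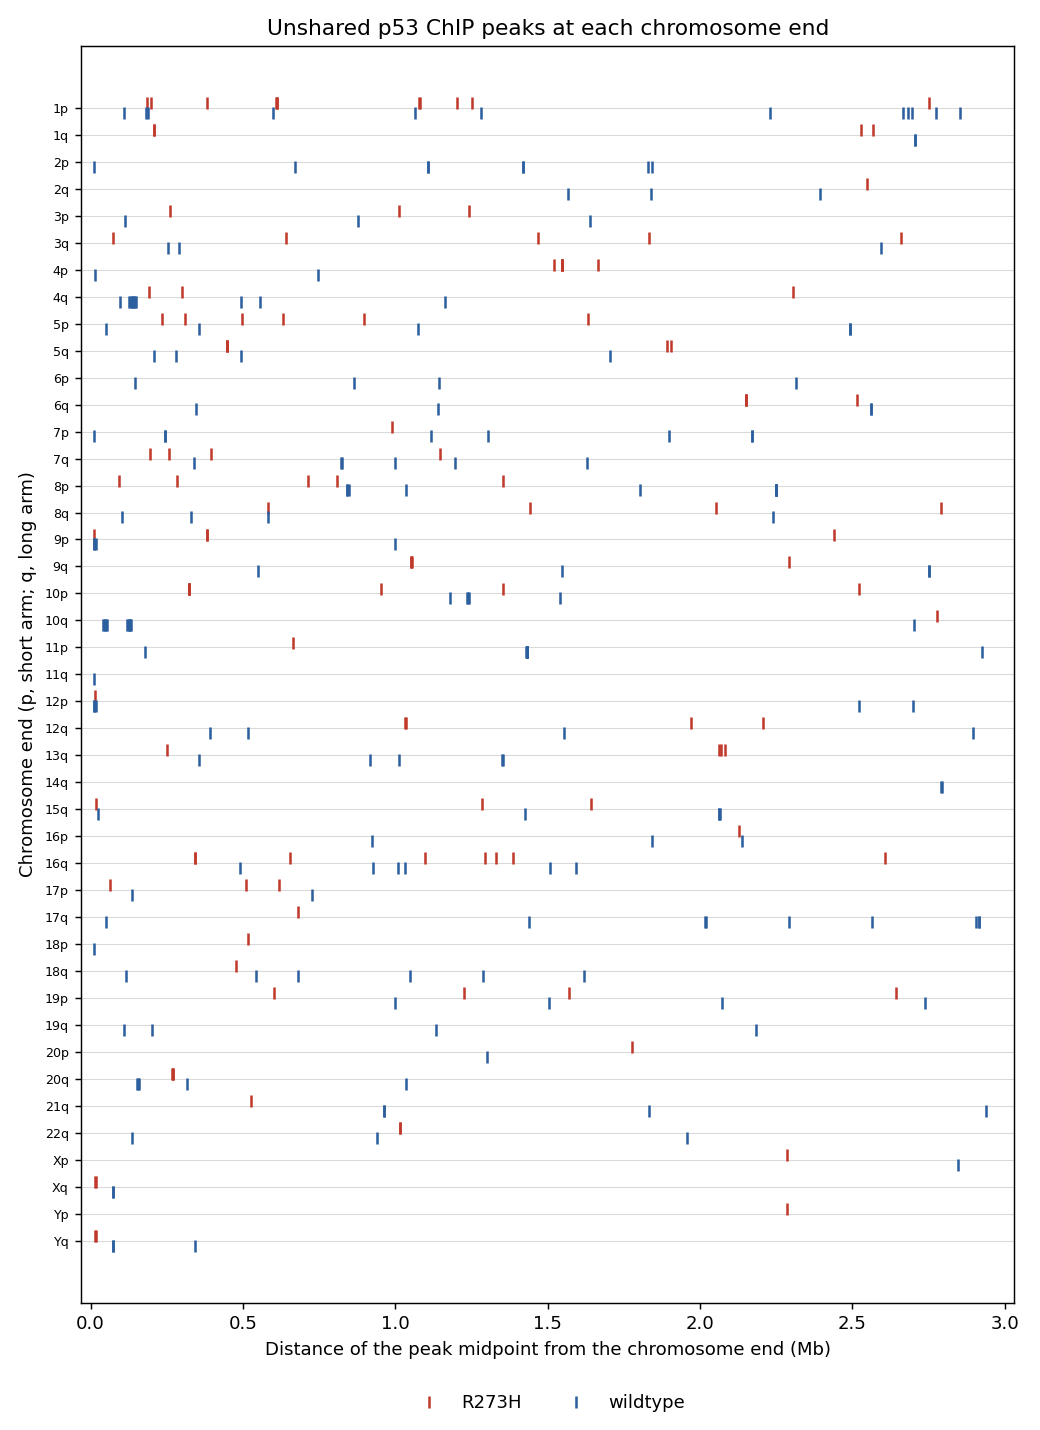
Position of each of the 323 unshared peaks as distance from its chromosome end in Mb (horizontal axis), with 1 row for each end that held a member (vertical axis), R273H ticks in red above the row and wildtype ticks in blue below it. Wildtype ticks crowd within the last 0.2 Mb of 4q and 10q, and both colours are spread along 1p.

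The crowded wildtype ends 4q and 10q held the DUX4-like arrays, which were picked out once the values were known. DUX4 is a transcription factor of the early embryo that is silent in most adult tissues, and its extra copies in the arrays are annotated as pseudogenes. The 10q array (chr10:133664429-133761135) had 11 wildtype peaks and no R273H peak, shared or unshared. The 4q array (chr4:190021169-190185911) had 9 unshared wildtype peaks and 1 unshared R273H peak. Together the arrays held 20 wildtype members, 10% of that list's members, and 1 R273H member.

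On chromosome 4 wildtype peaks lay in 7 of 11 annotated family members. Their scores were 61.05 in DBET, a noncoding RNA of the D4Z4 region, 60.63 in DUX4L8, 93.16 in DUX4L7, 58.83 in DUX4L6, 100.59 and 53.73 in DUX4L5, 57.71 in DUX4L1 and 84.38 in DUX4L3. A ninth peak, of score 87.97, lay 95.1 kb from the end, between the annotated copies. The R273H member scored 54.07 and lay in DUX4L9, 192 kb from the end and outside the run of wildtype peaks. On either side of the ninth wildtype peak lay a shared peak, at 98.6 and 91.6 kb, with R273H scores of 59.27 and 59.86 and wildtype scores of 369.8 and 246.64.

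On chromosome 10 wildtype peaks lay in 10 of 14 copies, in 2 groups 66234 bp apart. The outer group, 40.5 to 53.8 kb from the end, scored 77 in DUX4L10, 88.23 in DUX4L11, 51.76 in DUX4L12, 131.83 in DUX4L13 and 68.94 in DUX4L14. The inner group scored 64.37 in DUX4L28, 61.34 and 78.65 in DUX4L25, 98.86 in DUX4L24, 51.05 in DUX4L23 and 83.71 in DUX4L22. The spacing of the peaks was close to that of the copies. The median distance between neighbouring wildtype peaks in the arrays was 3280 bp, 7 of 18 distances lay between 3200 and 3400 bp, and neighbouring family genes started a median of 3299 bp apart on each chromosome.

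Because the copies are nearly identical, a read from one can be placed on another, and no source used here says how such reads were treated. Without the arrays the wildtype list had 180 members, 11.2% of its unshared peaks, and R273H had 122, or 7.79%. The wildtype density outside the arrays was 3.75 per Mb (2.22 to 5.93) in the outermost 0.1 Mb and 1.67 per Mb from 0.1 to 0.5 Mb, against 2.08 and 1.56 per Mb for R273H.

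**Figure D3:**
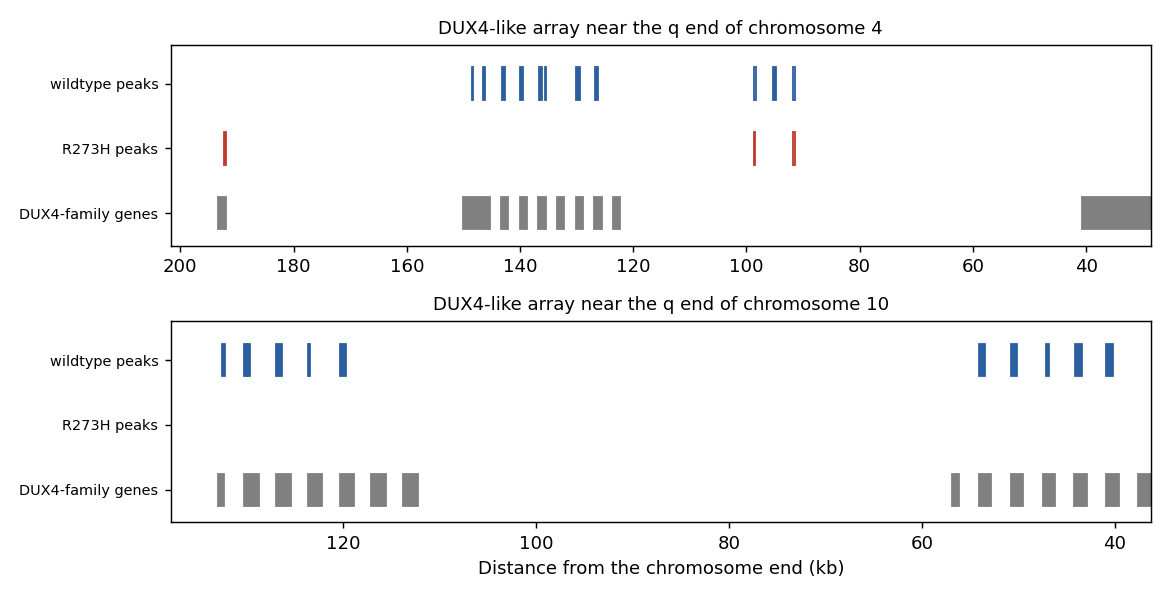
Peaks over the DUX4-like arrays near the q ends of chromosomes 4 (top) and 10 (bottom) by distance from the end in kb (horizontal axis), with wildtype peaks in blue, R273H peaks in red and annotated DUX4-family genes in grey. Wildtype peaks step through the gene copies; R273H has 1 unshared peak in DUX4L9 at 192 kb and the 2 shared peaks at 98.6 and 91.6 kb, and no peak on chromosome 10.

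Genes typical of chromosome ends carried peaks of both lists. The list of such genes had 43 entries in the windows, of which 11 had an R273H peak inside or within 10 kb and 10 a wildtype peak, beside 3.51% and 5.66% of all 4325 genes there. Leaving out DUX4 and its copies, 40 were in the windows, with 11 and 8 reached. A single peak can count for several of these genes, as the R273H peak in WASH8P did for DDX11L8. Many of them also lie close to the end, where peaks were denser, so the share over all genes is not a like background. WASH genes code for, or are inactive copies of, a protein that builds actin on endosomes, and DDX11L genes are fragments of a helicase gene. R273H members reached WASH3P, WASH6P, WASH8P, WASH9P and WASHC1, and wildtype members reached the same genes except WASH6P. FAM157A on 3q had an R273H peak (117.26) and no wildtype member. FRG2, which lies between DUX4L9 and the other copies on 4q, was reached only by the R273H peak in DUX4L9. SHANK3 on 22q, a scaffold of excitatory synapses, had a wildtype peak (86.08) and no R273H member.

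In 4 places a member of each list lay less than 1 kb from one of the other list, and 3 of them were in these families. The closest pair lay 87 bp apart at the very start of chromosome 9, next to DDX11L5, with an R273H peak at chr9:10212-10362 (61.71) and a wildtype peak at chr9:10450-10880 (263.3). At WASH8P on 12p the gap was 660 bp, with scores of 55.54 and 52.6, and at WASH9P on 1p it was 705 bp, with scores of 57.09 and 54.74. The remaining pair, 614 bp apart, lay in ARHGAP39 (64.11 and 54.07). With gaps of up to 1000 bp counted as shared, 117 R273H and 192 wildtype members were left.

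The 5 members nearest to an end lay 10.1 to 10.7 kb from it in the wildtype list and 10.3 to 16.6 kb from it in the R273H list. The wildtype ones were 2 peaks at the p end of chromosome 12 (chr12:10001-10143, score 61.74, and chr12:10190-10551, 113.96), 1 on 7p (chr7:10001-10244, 78.17), the 11q peak of LINC02684 and the 9p peak. Base 10001 was the lowest position of any peak in either list. In the R273H list they were the 9p peak, the peak in DDX11L16 at the q end of X (103.37) with its counterpart on Y, and the WASH8P peak. Tied for the last place were the WASH6P peak on Xq (68.53) and its counterpart on Y.

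Those X and Y peaks came in identical pairs. The ends of X and Y carry pseudoautosomal regions, in which both chromosomes have the same sequence. All 6 R273H members on X and Y formed 3 pairs of equal score and width, in DHRSX and its Y copy (56.63), in WASH6P (68.53) and in DDX11L16 (103.37). In the wildtype list 4 of 6 did so, in 2 pairs near LOC124905299 (73.84 and 80.15). Whether such a pair stems from the same reads was not tested, and without X and Y there were 117 R273H and 194 wildtype members.

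R273H members scored higher than the unshared R273H peaks elsewhere and lower than the shared ones. Scores are the authors' own, given separately for each list, and only rank peaks within it. An R273H score of 100 or more was given to 35 of 123 members (28.5%, interval 20.7 to 37.3%), against 80 of 1445 unshared peaks elsewhere (5.54%, 4.41 to 6.84%), with a background of 7.33% over all unshared R273H peaks. The median score was 72.3 in members and 58.9 in unshared peaks elsewhere. Among shared R273H peaks 55.6% near an end and 63.8% elsewhere scored 100 or more. Members made up 6 of the 10 highest unshared R273H peaks, 14 of the 20 highest and 22 of the 50 highest.

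Wildtype members scored close to the unshared wildtype peaks elsewhere. A score of 100 or more was given to 31 of 200 members (15.5%, 10.8 to 21.3%) and to 173 of 1422 unshared peaks elsewhere (12.2%, 10.51 to 13.98%), with a background of 12.6%. The medians were 64.8 and 60.1. Among shared wildtype peaks 80% near an end and 83.2% elsewhere scored 100 or more. Members were 1 of the 10 highest unshared wildtype peaks, 3 of the 20 highest and 5 of the 50 highest. In neither list did score follow distance from the end within the window (Spearman correlation of 0.02 for R273H and -0.13 for wildtype, across peaks of 1 library), while wider peaks scored higher (correlations of 0.49 and 0.42).

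**Figure D4:**
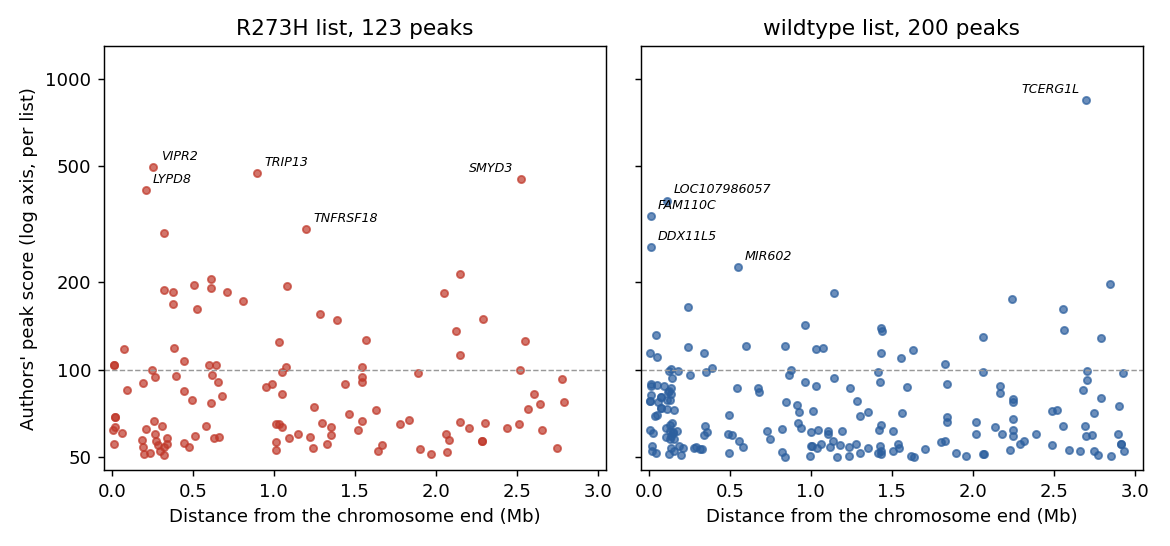
The authors' peak score on a log axis (vertical) against distance from the chromosome end in Mb (horizontal) for the 123 R273H members on the left and the 200 wildtype members on the right, with the 5 highest named by nearest gene and a dashed line at 100. Above the line are 35 R273H and 31 wildtype members; scores rank peaks within a panel, not between panels.

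The 4 highest R273H members lay inside protein-coding genes. VIPR2, the receptor for vasoactive intestinal peptide on 7q, held the top peak (chr7:159088871-159089490, score 498.77). TRIP13, an ATPase of meiosis and the spindle checkpoint on 5p, held the second and the widest (chr5:897288-899856, 2569 bp, 475.68). SMYD3, a lysine methyltransferase on 1q, held the third (chr1:246429748-246430134, 453.36) and also the second widest, of 1461 bp and score 72.96. LYPD8, a protein on the surface of colon epithelium that keeps bacteria from the mucosa, followed 209 kb from the end of 1q (chr1:248747162-248748293, 414.33). A peak of score 304.06 lay 1066 bp from TNFRSF18, which codes for a receptor of T cells.

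Several of the next R273H peaks were parts of a cluster, a run of members at most 10 kb apart. DIP2C on 10p had 4 peaks within chr10:321544-323467, with scores of 295.13, 50.88, 187.73 and 54.07. SMOC2 on 6q, a secreted matrix protein known as a marker of intestinal stem cells, had 3, with scores of 112.12, 65.95 and 213.17. LOC105378947 on 1p had 3, of which the highest scored 205.03 and 191.25. On 1p, 2 peaks next to C1orf159 scored 101.74 and 193.42, the higher one 826 bp from the gene. A single peak lay in VPS53, a subunit of the complex that tethers vesicles at the Golgi (195.66). The third widest member, of 1341 bp, lay 6972 bp from the transfer RNA gene TRV-CAC1-2 on 5q (106.92).

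Of the 12 highest wildtype members 6 lay outside genes, and of the 12 highest R273H members 2 did. The top one covered the start of TCERG1L-AS1 inside TCERG1L, a relative of a transcription elongation factor (chr10:131094583-131095233, 847.34). The next 4 all lay between genes: at 3p, 11948 bp from LOC107986057 (chr3:111093-111644, 381.64), at the tip of 2p, 27662 bp from FAM110C (chr2:10794-11152, 338.32), at the tip of 9p (263.3), and on 9q, 6531 bp from the microRNA gene MIR602 (chr9:137845047-137846399, 225.51). Inside genes lay the peaks of GYG2, which primes glycogen synthesis in liver (196.65), FAM20C, a kinase of secreted proteins (164.23), LOC101929420 (162.17), PCBP3, an RNA-binding protein (141.79), and BRSK2, a kinase of neuronal polarity (139.04). A further 2 intergenic peaks lay 27476 bp from LOC124901237 (183.91) and 11860 bp from CYP11B2, the aldosterone synthase (175.49). The widest wildtype member, of 1820 bp, lay 4725 bp from LOC101927691 on 6p (96.05), followed by the MIR602 peak and one of 990 bp inside SNPH (68.96).

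Some members of both lists lay in clusters. Clusters were formed for members only, so whether peaks elsewhere cluster as often is not known. R273H members formed 98 clusters, of which 16 had more than 1 member and held 41 of the 123. The largest R273H clusters had 4 members, in DIP2C and in the 27147 to 28410 bp next to FAM53A on 4p, and those of 3 also lay in the zinc finger gene MYT1 on 20q and in EXD3 on 9q. Wildtype members formed 145 clusters, of which 28 had more than 1 member and held 83 of the 200. Apart from the arrays, whose largest cluster had 8, the largest wildtype clusters had 7 peaks inside BRSK2 within chr11:1430033-1432797 and 5 peaks near LOC105377783 on 8p. Members of a cluster are neighbours on 1 stretch of DNA and are not independent of each other.

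Most members of both lists lay inside genes. For R273H this was 86 of 123 (69.9%, 61.0 to 77.9%) against 374 of 1445 unshared peaks elsewhere (25.9%, 23.6 to 28.2%), with a background of 29.3%. For wildtype it was 141 of 200 (70.5%, 63.7 to 76.7%) against 669 of 1422 (47.0%, 44.4 to 49.7%), with a background of 49.9%. The intervals of the lists overlapped near the ends and did not overlap elsewhere. Genes covered 55.4% of the end windows and 54.1% of the remaining length. The 55.4% includes the short-arm windows without an annotated gene, which held no member. Over the 43 ends with a gene the median coverage was 66.0%, within the intervals of both member shares.

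Peaks far from any gene were almost absent from the end windows. Over 100 kb from a gene lay 1 of 123 R273H members (0.813%, 0.0206 to 4.45%) and 0 of 200 wildtype members (interval 0 to 1.83%). The R273H one was the Y counterpart of the peak inside DHRSX on X, 468276 bp from the nearest gene listed on Y. The Y counterparts of the WASH6P and DDX11L16 peaks also counted as outside genes, although the X peaks lay inside. Elsewhere it was 811 of 1445 R273H peaks (56.1%) and 428 of 1422 wildtype peaks (30.1%). Shared peaks near an end also had 0 of 45 in each list, so this was not particular to the unshared ones. How much of the window length lies over 100 kb from a gene was not computed. Transcription starts, counted outside chromosome 8, lay within 10 kb of 33 of 114 R273H members (28.9%) and 54 of 186 wildtype members (29.0%), against 7.74% and 19.9% of unshared peaks elsewhere. Shared peaks near an end had nearly the same share, 12 of 42 (28.6%) in both lists. Of 35116 promoter windows 2906 lay in the end windows, which were 4.66% of the length with chromosome 8 included. Starts within 1 kb were rarer, for 7 R273H members (6.14%, 2.50 to 12.2%) and 11 wildtype members (5.91%, 2.99 to 10.3%). Among unshared peaks elsewhere the shares were 1.65% (1.05 to 2.46%) and 4.28% (3.27 to 5.50%), with backgrounds of 1.99% and 4.48%. The intervals near the ends and elsewhere overlapped for wildtype and did not overlap for R273H. Shared peaks near an end had such a start in 8 of 42 cases in both lists (interval 8.60 to 34.1%).

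**Figure D5:**
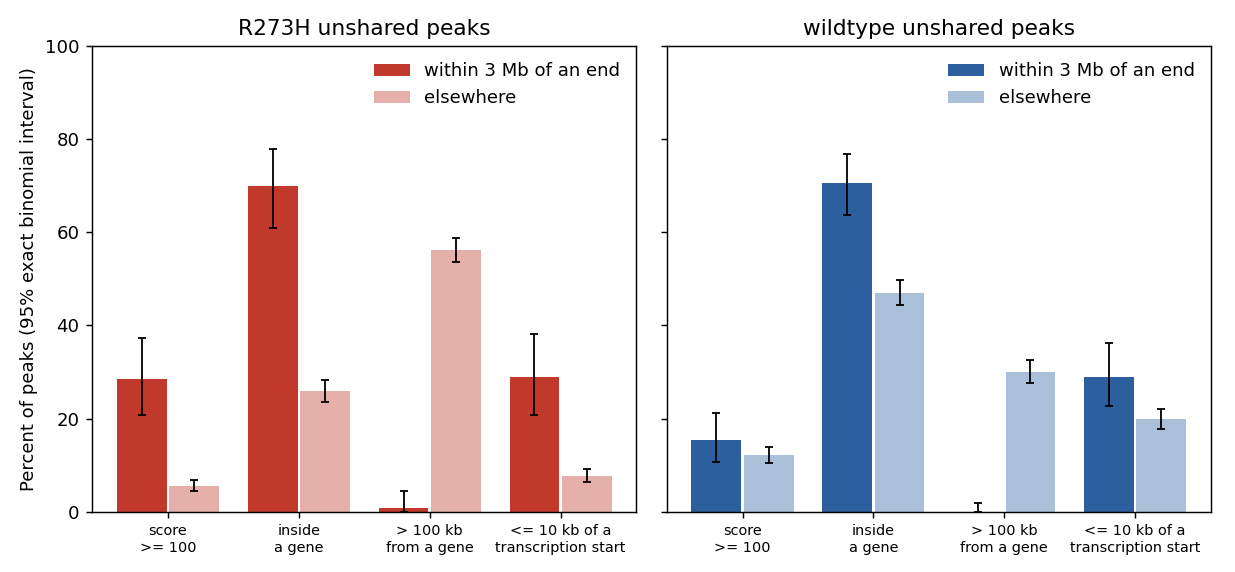
Percent of unshared peaks (vertical axis, exact 95% binomial intervals) with each property on the horizontal axis, within 3 Mb of an end (dark bars) and elsewhere (pale bars), R273H on the left and wildtype on the right. Inside a gene lay 69.9% of R273H and 70.5% of wildtype members, against 25.9% and 47.0% elsewhere.

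R273H members lay inside 70 of the 4325 genes in the windows (1.62%), 46 of them protein-coding, and wildtype members inside 119 (2.75%), 63 of them protein-coding. With genes up to 10 kb away counted too, R273H members reached 75 of the 1769 protein-coding genes in the windows (4.24%) and wildtype members 105 (5.94%). Members of both lists lay inside 14 genes, which were 20% of the R273H genes and 11.8% of the wildtype genes. The rule kept only peaks that do not overlap, so this count describes the members and has no test. Of these 10 were protein-coding, and the rest were WASH3P, WASH8P, WASH9P and the readthrough RNA PDCD6-AHRR.

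Among the genes held by both lists several are long, so that peaks of the lists can lie far apart within them. PTPRN2, a protein of secretory vesicles on 7q, had 1 R273H peak (59.91) and 5 wildtype peaks, up to 116.86. ADARB2, a brain protein related to RNA-editing enzymes, had 1 R273H peak (63.42) and 5 wildtype peaks, up to 86.24. DLGAP2, a synaptic scaffold protein on 8p, had 2 R273H peaks, up to 172.15, and 4 wildtype peaks, up to 120.66. SMYD3 had 2 of each, up to 453.36 for R273H and 98.49 for wildtype, and their nearest peaks lay 135993 bp apart. RASA3, a GTPase-activating protein on 13q, had 1 of each (99.91 and 98.16). TTC34, LOC105378947, CHLSN, KCNG2 and ARHGAP39 complete the group.

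None of the listed p53 target genes carried a member. Of the list of p53 targets 5 lay in the windows: DCP1B, an mRNA decapping factor, the growth regulators HRAS, NOTCH1 and TSC2, and PIDD1, a death domain protein. Neither list had a member inside them or within 10 kb. The same held for the 4 telomere maintenance genes, DKC1, RTEL1, SMG6 and TERT, the telomerase reverse transcriptase. Beside these zeros, 3.51% of all genes in the windows had an R273H member and 5.66% a wildtype member, so in lists this small a count of 0 is near the background.

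Of 5 stem cell and Wnt pathway genes in the windows, SMOC2 had R273H members, and ASCL2, AXIN1, NKD2 and NOTCH1 had none of either list. Of 35 cancer and growth genes, 10 had an R273H member and 3 a wildtype member, beside 3.51% and 5.66% of all genes in the windows, but this list includes genes taken from earlier results of these data, among them VIPR2, TRIP13 and SMYD3, and its count is no independent evidence. Beside those already described, R273H members lay in STK11, a kinase and tumour suppressor on 19p (58.45), and in 3 other genes of 5p. These were CEP72, a centrosome protein (58.01), SLC9A3, the sodium and proton exchanger of the gut brush border (78.33), and PDCD6, a calcium-binding protein (64.11). The TNFRSF18 peak was also within 10 kb of TNFRSF4. A wildtype member lay 415 bp from SKI, a repressor of TGF-beta signalling (52.99), and the remaining wildtype genes were PTPRN2 and SMYD3.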

How the data were processed

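p53 ChIP-seq and input libraries came from HCT116 spheroids of 2 genotypes, 1 of each per genotype. Per the submitters' processing notes the tools were HOMER, MACS and Bowtie 1.2.2, on build hg38, with no role stated. No source used here gives the peak threshold, the use of the inputs or any pooling. The authors deposited 1 peak list per genotype with a score for each peak, on a scale that no source used here explains. Each list was assigned to a ChIP sample by its name, because 1 sample description names the list of the other genotype. Peak numbers ran from 193 to 2200 (R273H) and from 228 to 2286 (wildtype); the 192 and 227 lower numbers were not analysed here. The score covers peaks from just above 50 upward, and read depth is unknown.

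Members and gene lists were chosen with earlier results of these data known. Peaks overlapping by 1 bp were shared, and distance was measured from the midpoint to the hg38 chromosome end. Genes came from a RefSeq table of GRCh38.p14 without strand or exons, so exon, intron and untranslated region are not given; 58961 rows on the chromosomes were kept and 718 rows of other scaffolds left out. Transcription starts and promoter windows came from a RefSeq table of 35116 windows, not used here for chromosome 8. Named by rule were, per list, the 12 highest-scoring members, the 5 nearest to an end, the 3 widest, those inside or within 10 kb of listed genes or over a promoter window, the 5 fullest ends, the members at the 3 Mb limit and pairs under 1 kb apart. Other genes, the arrays and the clusters were named after their values were seen. No test between genotypes was run. Overlap counting was tested on simulated data. Alternatives were limits of 2 and 5 Mb, reciprocal overlap of 50%, gaps of 1000 bp, a common score filter, lists without X and Y or without peaks over 100 kb from a gene and, added after seeing the data, all rows of the gene table and lists without the arrays. Tools were Python 3.11.15, pandas 2.3.3, scipy 1.17.1 and matplotlib 3.10.9.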

Additional observations from a re-analysis of the deposited data

How the results depend on the processing

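Of 72 values recomputed under 9 alternatives, 60 stayed within their interval or within 1.5 times the count. The share of unshared peaks near an end was 6.25% (R273H) and 9.37% (wildtype) with a limit of 2 Mb, and 10.1% and 15.04% with 5 Mb. With peaks at or above the common median score of 63.42, the shares were 13.5% and 15.5%, the members 81 and 114, and the percent of members scoring 100 or more 44.4% and 32.5%. Without peaks over 100 kb from a gene the shares near an end were 16.1% and 16.8%. These alternatives change the number of peaks or the length counted by construction. The share of members inside a gene stayed within its interval under every alternative. No paired analysis was possible because each genotype had 1 ChIP library and no test was run. Depth limits cannot be stated from scores alone.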

Other observations

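Outside X and Y, some members had a peak of the same score and the same width elsewhere in their own list. This held for 6 of 117 R273H members (5.13%) and 21 of 194 wildtype members (10.8%), beside 8.32% and 12.7% of unshared peaks away from the ends. In 1 such pair both peaks were members in a repeated gene family: the wildtype peaks in WASH9P on 1p and at WASHC1 on 9p both scored 54.74 and were 126 bp wide. How such equal values arose was not tested.

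Among noncoding genes, R273H members lay inside 14 lncRNA genes (0.996%) and wildtype members inside 31 (2.20%), of 1406 in the windows, beside 1.62% and 2.75% of all genes there. Pseudogenes not annotated as transcribed held an R273H member in 3 cases and a wildtype member in 18, of 610, and most of the wildtype ones were the DUX4-like copies of 4q and 10q. Transcribed pseudogenes did so in 7 and 6 cases, of 81. Over both classes the counts were 10 (1.45%) and 24 (3.47%), of 691.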
